A study of Mus musculus with 10 samples.

Results

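Receptor genes for interleukin 6 (Il6ra, Il6st), the interleukin 1 family (Il1r2, Il18r1), interleukin 10 (Il10ra, Il10rb), interferon gamma (Ifngr1, Ifngr2) and type I interferon (Ifnar1, Ifnar2) were followed in CD4+ cells of the spleen early in abdominal sepsis. The 10 genes were picked by name, and every probe set of the array that the platform annotation gives to exactly 1 of these symbols was taken, which gave 21 of the 45101 probe sets in the table, for 10 of 18194 named genes. The samples came from C57Bl/6 mice aged 8 to 12 weeks, with no transgene or deletion named for either group. Cecal ligation and puncture (CLP), a standard model of polymicrobial sepsis, was done in 5 mice, and the other 5 had a sham laparotomy without that injury, all anaesthetised with halothane. The spleen was removed at 6 h and depleted of other cells with magnetic antibodies, which left about 91% CD4+ cells by the submitters' labels. By the labels, every array holds the cells of an individual mouse (n = 5 in each group). All sham titles give replicate 1, so sham arrays are numbered by the ending of the title, sham-1 to sham-5. All 7 measured members of a CD4 T cell marker list, Cd4, Cd3d and Cd3e among them, passed the brightness filter on these arrays. So did all 7 neutrophil and all 5 B cell markers measured, so the filter does not tell these cell types apart. Of the 7 CD4 T cell markers, 6 had a lower CLP mean, with a median log2 difference of -0.12. None of them was called at an adjusted p under 0.05 by limma in the main fit. With arrays blocked by their 18S ribosomal RNA signal, as described below, Cd5 (-0.69) and Cd3g (-0.49) were called lower. Their adjusted p was 0.033 and 0.043 by limma, in a fit that called 2.66% of all tested probe sets. The other CD4 T cell markers did not pass there. In such bulk samples, fewer cells of a type and less RNA per cell cannot be told apart.

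Each of these receptors works as a pair of chains. Interleukin 6 binds Il6ra and signals through Il6st (gp130), which other cytokines of the family share, and the signal runs mainly through Stat3. Il18r1 binds interleukin 18 and passes its signal through Myd88, whereas Il1r2 is a decoy that binds interleukin 1 and cannot signal. Il10ra and Il10rb bind interleukin 10, Ifngr1 and Ifngr2 bind interferon gamma, and Ifnar1 and Ifnar2 bind type I interferons. In CD4+ T cells the level of the interferon gamma receptor helps to set how strongly a cell answers that cytokine.

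Of the 21 receptor probe sets, 16 were bright enough to test, from 9 of the 10 genes. The 3 probe sets of Il10ra and 2 of the 4 of Il6st lay below the filter, a mean log2 signal of 6.71. None of the 16 passed the threshold of an adjusted p of 0.05 in either direction by limma, where 0.703% of all 27022 tested probe sets were called, 0.167% higher in CLP mice and 0.537% lower. At an unadjusted p under 0.05 there was 1, Ifngr1, where 10.9% of all tested probe sets lay. The same probe set was the only 1 of the 16 in which all CLP arrays lay above all sham arrays (0.862% of all tested probe sets did so), and in none did all lie below (2.11%). The CLP mean was the higher in 10 and the lower in 6, and the median difference was 0.02 on the log2 scale, against 0.00 over all tested probe sets (median size 0.16 against 0.10).

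**Figure D1:**
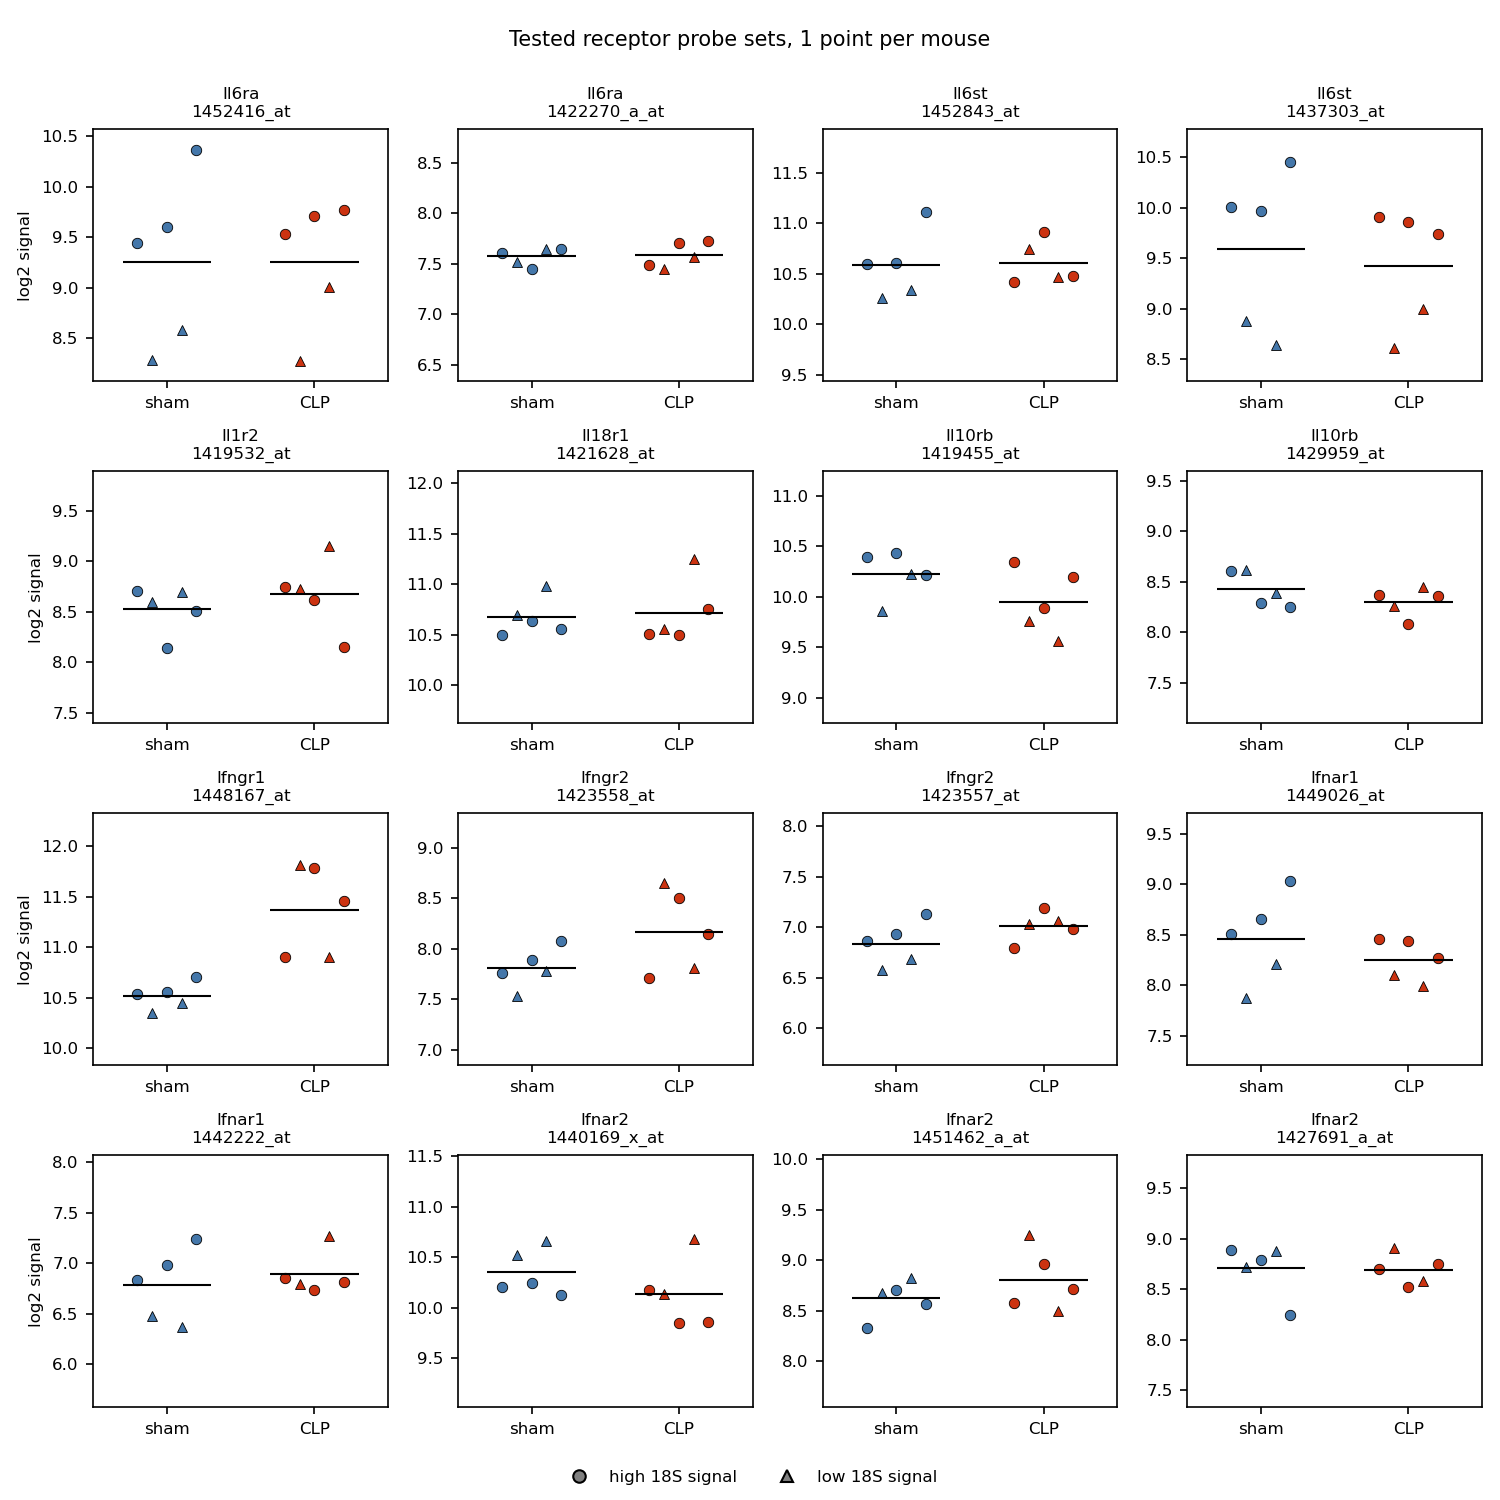
Log2 signal of the 16 tested receptor probe sets in each array, with sham on the left and CLP on the right of each panel, 1 point per mouse, a line at the group mean and circles or triangles for arrays with high or low 18S ribosomal RNA signal. All panels span the same log2 range; the groups are apart in Ifngr1, while in Il6ra 1452416_at and Il6st 1437303_at the circles lie above the triangles in both groups.

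The chains of the interferon gamma receptor gave the largest positive differences. Ifngr1 (probe set 1448167_at), the chain that binds the cytokine, had log2 signals of 10.54, 10.35, 10.55, 10.45 and 10.70 in sham replicates 1 to 5. In CLP replicates 1 to 5 it had 10.90, 11.81, 11.78, 10.91 and 11.46. Every CLP array thus lay above the highest sham array, and the CLP arrays were more spread, with CLP 1 and CLP 4 close to the sham range. The means were 10.52 ± 0.13 (SD, n = 5) in sham and 11.37 ± 0.45 in CLP mice, a difference of 0.85 ± 0.19 (SE) or 1.81-fold (95% interval 1.36-fold to 2.40-fold). Its adjusted p was 0.0676 by limma, the 289th lowest p of the table, so it missed the threshold.

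Whether Ifngr1 passed depended on the setting. The arrays fell into 2 classes by the signal of a probe set for 18S ribosomal RNA, 6 arrays between 3134 and 5178 and 4 between 194 and 268, with 3 sham and 3 CLP arrays in the high class and 2 and 2 in the low class. With this class as a block, the difference of Ifngr1 was again 0.85 ± 0.19 and its adjusted p by limma was 0.0389, where 2.66% of all tested probe sets were called and 0.648% were called higher; it was the only 1 of the 16 receptor probe sets to pass in that fit. Within the high class alone the difference was 0.78 (adjusted p = 0.137 by limma) and within the low class 0.96 (adjusted p = 0.644 by limma). Without CLP replicate 1 the adjusted p was 0.0224, and without CLP replicate 4 it was 0.0397, both by limma. These were the 2 CLP arrays with the lowest Ifngr1 signal. Leaving out any other single array gave an adjusted p by limma from 0.0967 (sham replicate 5) to 0.182 (CLP replicate 5). Over 23 other settings the difference of Ifngr1 lay between 0.74 and 0.97, and it passed in 4 of them. Ifngr1 was read by 1 probe set, so there was no other to check its value. Averaging the probe sets of a gene, 1 of these settings, therefore left its difference unchanged.

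Ifngr2, the chain that completes the signalling complex, was read by 2 probe sets. The brighter, 1423558_at, had 7.76, 7.54, 7.89, 7.78 and 8.07 in sham replicates 1 to 5 and 7.71, 8.66, 8.51, 7.81 and 8.15 in CLP replicates 1 to 5. CLP 2, CLP 3 and CLP 5 lay above all sham arrays and the other two CLP arrays inside their range. The difference was 0.35 ± 0.18 (SE; 95% interval -0.05 to 0.76, adjusted p = 0.551 by limma). The dimmer, 1423557_at, gave 0.17 ± 0.12 (95% interval -0.08 to 0.43) with overlapping groups. Both kept a positive difference in every other setting run, and neither passed in any.

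The CLP arrays fell in the same order in Ifngr1 and in the brighter Ifngr2 probe set, from CLP 2 through CLP 3, CLP 5 and CLP 4 down to CLP 1. Ifngr1 sets this order, and 1 of the 15 other receptor probe sets showed it, as did 0.740% of all tested probe sets. Another, Ifnar2 1451462_a_at, began with the same arrays, CLP 2, CLP 3 and CLP 5. A correlation was not computed, because the groups do not overlap in Ifngr1 and each holds only 5 arrays. Among 13072 other genes, the profiles most like that of Ifngr1 over the 10 arrays were those of Gramd3, Zfp281 and Ppp2ca. Their root mean square differences from it, after centring, were 0.13, 0.14 and 0.15 log2 units, where Ifngr1 itself varied by 0.52 around its mean.

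**Figure D2:**
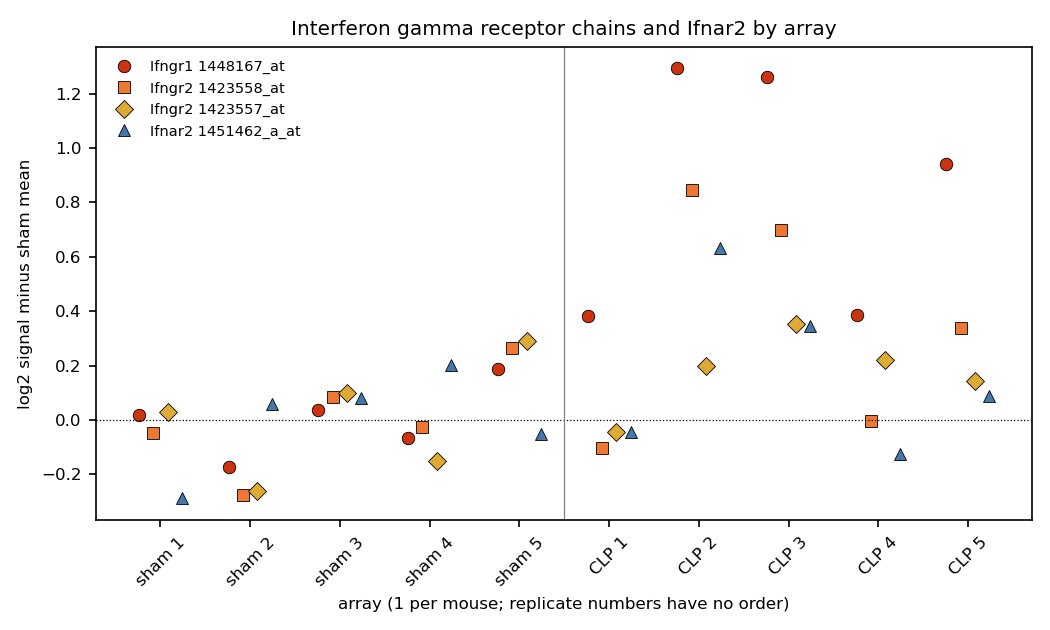
Log2 signal minus the sham mean in each of the 10 arrays for Ifngr1, both probe sets of Ifngr2 and 1 probe set of Ifnar2. CLP 2 and CLP 3 hold the highest values of Ifngr1 and of Ifngr2 1423558_at, and CLP 1 the lowest of the CLP arrays.

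The sequences just upstream of these 2 genes are shown because their chains form 1 receptor and gave the largest positive differences. They are the 250 bases before the start of each gene, from RefSeq, build GRCm38.p6, plus strand, at chr10:19591699-19591948 for Ifngr1 and chr16:91546809-91547058 for Ifngr2. Capitals mark matches to the GC box, GGGCGG on either strand, the core bound by Sp1-family factors.
Ifngr1: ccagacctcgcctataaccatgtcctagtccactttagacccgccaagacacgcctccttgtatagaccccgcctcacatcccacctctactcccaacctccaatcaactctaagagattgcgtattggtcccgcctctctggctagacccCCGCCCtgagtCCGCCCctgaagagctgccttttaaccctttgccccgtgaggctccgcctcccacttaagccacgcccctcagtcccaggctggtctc
Ifngr2: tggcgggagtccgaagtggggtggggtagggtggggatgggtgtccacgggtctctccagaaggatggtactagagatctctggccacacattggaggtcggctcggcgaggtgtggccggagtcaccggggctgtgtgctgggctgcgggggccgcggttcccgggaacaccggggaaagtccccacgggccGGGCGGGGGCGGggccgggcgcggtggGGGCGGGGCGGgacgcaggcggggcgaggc
There were 2 such matches in the Ifngr1 window and 4 in that of Ifngr2, where 1 adjoining pair shares a base, and 32.7% of 32851 windows of the same length upstream of RefSeq genes hold at least 1. Both windows also hold CCAAT on at least 1 strand (33.8% of all windows). Neither holds TATAAA (12.4%), the interferon gamma activated site TTCNNNGAA (7.02%), the core of elements bound by interferon regulatory factors, GAAANNGAA (7.13%), or TGANTCA, the AP-1 element (6.75%), on either strand. Of the 10 receptor genes 8 had windows, without Il10ra and Il10rb; TTCNNNGAA occurred in those of Ifnar2, Il18r1 and Il1r2, and CACGTG, the E-box of clock and Myc factors, in those of Il1r2 and Il6ra (6.02% of all windows). These matches describe letters and were not set against the measured differences.

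The type I interferon receptor chains did not pass, and their probe sets went both ways. Ifnar1 1449026_at had 8.51, 7.88, 8.66, 8.22 and 9.04 in sham replicates 1 to 5 and 8.46, 8.10, 8.44, 7.99 and 8.27 in CLP replicates 1 to 5. All CLP values lay inside the sham range, and the difference was -0.21 ± 0.19 (SE; 95% interval -0.63 to 0.22, adjusted p = 0.836 by limma). Its dimmer probe set, 1442222_at, gave 0.11 ± 0.17 (95% interval -0.26 to 0.49). For Ifnar2, the chain that binds first, 1440169_x_at gave -0.21 ± 0.17 (95% interval -0.57 to 0.15), 1451462_a_at 0.18 ± 0.15 (-0.15 to 0.51) and 1427691_a_at -0.01 ± 0.13 (-0.30 to 0.28). The groups overlapped in all 5 of these probe sets. Probe sets of 1 gene that part in sign leave no single direction for either chain.

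The chains of the interleukin 10 receptor could be tested in part. Il10ra, the chain specific to interleukin 10, had all 3 of its probe sets under the filter: 1456173_at lay at or below the floor of 6.14 in all 10 arrays, 1448731_at ran from 6.28 to 6.70 in sham and from 6.32 to 6.74 in CLP arrays, and 1437808_x_at from 6.45 to 6.86 and from 6.37 to 6.95. These ranges overlap and lie close to the floor, so no fold is given for Il10ra. Il10rb, the chain shared with other cytokines of the family, had 10.40, 9.86, 10.43, 10.22 and 10.22 in sham replicates 1 to 5 and 10.34, 9.76, 9.89, 9.56 and 10.20 in CLP replicates 1 to 5 by 1419455_at. Its means were 10.23 ± 0.23 (SD, n = 5) and 9.95 ± 0.32, a difference of -0.28 ± 0.16 (SE; 95% interval -0.63 to 0.08, adjusted p = 0.629 by limma), and its other probe set, 1429959_at, gave -0.13 ± 0.11 (-0.36 to 0.11). Both probe sets kept their sign over all other settings run, and neither passed in any. The ligand Il10 itself had a sham mean of 6.57, under the filter and close to the floor, and a CLP mean of 7.79, so it entered the test only through the CLP arrays. All CLP arrays lay above all sham arrays and it passed (adjusted p = 0.0349 by limma), but in 11 of 22 other settings it did not, and no fold is given for it either.

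The 4 genes Ifnar2, Il10rb, Ifnar1 and Ifngr2 are consecutive protein-coding genes on chromosome 16 in the RefSeq annotation of GRCm38.p6. By their brightest probe sets the differences along this run were -0.21, -0.28, -0.21 and 0.35, and none passed. Ifngr1 lies on chromosome 10 beside Il22ra2, the decoy receptor of interleukin 22, whose value was 0.09 ± 0.10 (SE). Il1r2 and Il18r1 both lie on chromosome 1 in the cluster of interleukin 1 receptors, where Il1r2 is next to Il1r1 (0.10 by its tested probe set) and Il18r1 stands between Il1rl1 and Il18rap (0.14 ± 0.09).

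The interleukin 6 receptor chains showed no difference past the threshold, while 1 probe set of both separated the arrays by 18S class. Il6ra 1452416_at had 9.45, 8.28, 9.60, 8.58 and 10.37 in sham replicates 1 to 5 and 9.53, 8.28, 9.71, 9.01 and 9.77 in CLP replicates 1 to 5. Il6st 1437303_at had 10.01, 8.88, 9.97, 8.64 and 10.45 in sham and 9.91, 8.61, 9.86, 9.002 and 9.74 in CLP replicates. In both, replicates 2 and 4 of each group were the low ones, which are the arrays of the low 18S class. The differences between CLP and sham were 0.00 ± 0.40 (SE; 95% interval -0.86 to 0.87) for Il6ra and -0.17 ± 0.37 (-0.98 to 0.65) for Il6st, the widest intervals of the 16. Between classes, with the group in the model, the high arrays were 2.30-fold higher in Il6ra (low minus high -1.20 ± 0.20, adjusted p = 0.00252 by limma) and 2.31-fold higher in Il6st (-1.21 ± 0.13, adjusted p = 2.25e-04 by limma). The high arrays ran from 9.45 to 10.37 and the low ones from 8.28 to 9.01 in Il6ra, without overlap.

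Other probe sets of the same genes differed less between the classes. Il6ra 1422270_a_at gave -0.06 (95% interval -0.25 to 0.13) and Il6st 1452843_at -0.24 (-0.57 to 0.10), intervals that do not reach those of the probe sets above, although the difference between probe sets was not tested. For the effect of CLP, Il6ra 1422270_a_at gave 0.01 ± 0.09 (95% interval -0.18 to 0.20) and Il6st 1452843_at 0.02 ± 0.16 (-0.33 to 0.38). Il6ra 1422270_a_at was the dimmer of its gene, with means of 7.57 in sham and 7.59 in CLP mice. Il6ra 1452416_at had a mean of 9.26 in both groups. The remaining Il6st probe sets were dim: 1421239_at lay at or below the floor in all 10 arrays and 1460295_s_at between 6.19 and 6.71.

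Of the 16 receptor probe sets 5 (31.2%) passed between the 18S classes by limma, against 15.1% of all tested probe sets. The other three were Il10rb 1419455_at (-0.40 ± 0.11, adjusted p = 0.0401 by limma) and Ifnar1 1449026_at (-0.51 ± 0.13, adjusted p = 0.0198), both lower in the low class, and Ifnar2 1440169_x_at (0.42 ± 0.11, adjusted p = 0.0306), which was higher there. Ifngr1 gave -0.11 ± 0.19 between classes and the brighter Ifngr2 probe set -0.07 ± 0.19. The classes hold sham and CLP arrays evenly, and what lies behind them was not tested.

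**Figure D3:**
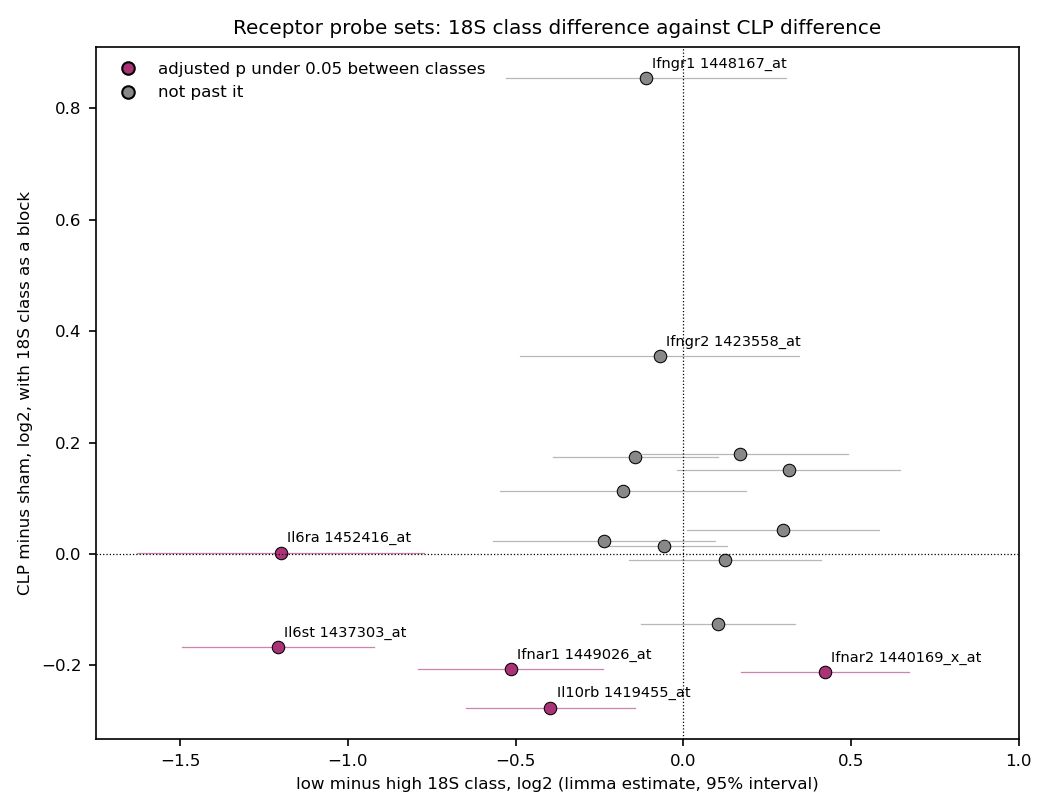
Each point is 1 of the 16 tested receptor probe sets, placed by its log2 difference between arrays of low and high 18S signal (horizontal, with the 95% interval) and by its CLP minus sham log2 difference with the class as a block (vertical). Il6ra 1452416_at and Il6st 1437303_at lie at -1.20 and -1.21 on the class axis, and Ifngr1 stands at 0.85 on the CLP axis and -0.11 on the class axis.

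The receptors of the interleukin 1 family showed overlapping groups. Il1r2, the decoy, had 8.71, 8.60, 8.14, 8.70 and 8.51 in sham replicates 1 to 5 and 8.75, 8.73, 8.62, 9.15 and 8.15 in CLP replicates 1 to 5. CLP 4 was the highest array and CLP 5 nearly the lowest, and the difference was 0.15 ± 0.17 (SE; 95% interval -0.23 to 0.53, adjusted p = 0.889 by limma). Neutrophils and regulatory T cells are known to carry this decoy. The summed signal of 7 neutrophil markers ran from 4133 to 11107 in sham and from 2595 to 14258 in CLP arrays; it was highest in CLP 1 and 2702 in CLP 4, the array where Il1r2 was highest. The summed signal of 8 regulatory T cell markers ran from 6971 to 9852 in sham and from 7889 to 9819 in CLP arrays. The members of that list went both ways under this sum: 1 of 8, Tnfrsf4, rose (1.90-fold, adjusted p = 0.0441 by limma), while Foxp3 (1.10 ± 0.22, SE; adjusted p = 0.0530), Ctla4 (1.44 ± 0.29; 0.0513) and Nrp1 (-1.29 ± 0.27; 0.0616) did not pass. With the 18S class as a block, Foxp3, Ctla4 and Nrp1 passed (adjusted p = 0.0277, 0.0280 and 0.0263 by limma), as did Tnfrsf4 (0.0267). In that fit 2.66% of all tested probe sets were called. All CLP arrays lay above all sham arrays in Foxp3 and below them in Nrp1. The part of neutrophils and regulatory T cells in the Il1r2 signal was not tested.

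Il18r1, which is abundant on T helper 1 cells and natural killer cells, had 10.50, 10.70, 10.64, 10.98 and 10.56 in sham replicates 1 to 5 and 10.51, 10.56, 10.50, 11.25 and 10.76 in CLP replicates 1 to 5. CLP 4 was again the highest array, and the difference was 0.04 ± 0.15 (SE; 95% interval -0.29 to 0.38, adjusted p = 0.973 by limma). Tbx21, the T helper 1 master factor, fell 1.90-fold on the same arrays (adjusted p = 0.0357 by limma), as the only 1 of 6 tested T helper 1 markers to pass. The summed signal of 5 natural killer markers was 2873 to 3586 in sham and 2540 to 2804 in CLP arrays, without overlap, with Ncr1 at the floor in all arrays. None of its 4 tested members passed in the main fit, and they went from -0.54 (Klrd1) and -0.24 (Nkg7) through 0.00 (Klrk1) to 0.34 (Gzma). With the 18S class as a block Klrd1 passed (adjusted p = 0.0359 by limma) and the others did not. All CLP arrays lay below all sham arrays in Nkg7, and the groups overlapped in the others. The part of these cells in the Il18r1 signal was not tested.

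**Figure D4:**
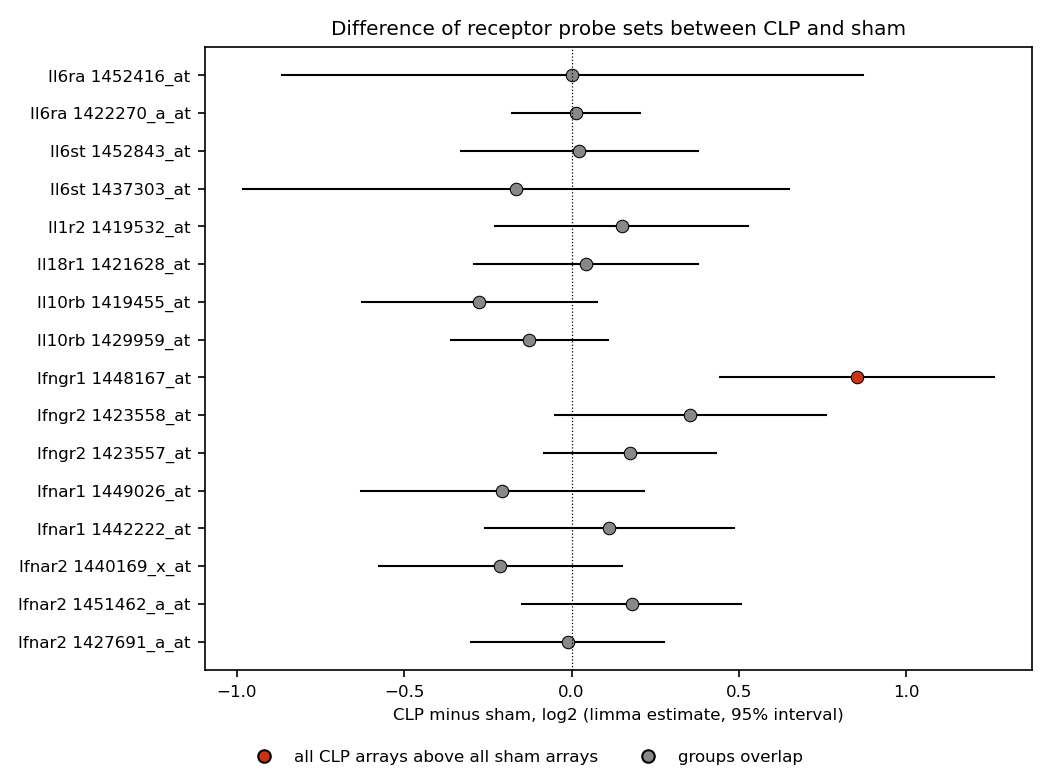
CLP minus sham difference on the log2 scale with its 95% interval from limma for the 16 tested receptor probe sets. The interval of Ifngr1 runs from 0.44 to 1.26 and the other 15 include 0.

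Away from Ifngr1, the 15 other tested probe sets had differences from -0.28 to 0.35 and adjusted p of 0.551 or more by limma. All 15 of their 95% intervals stayed within 1 log2 unit of 0, from -0.98 to 0.87 at the widest, so a change beyond 2-fold lay outside each interval, taken singly, while smaller changes remain possible. Markers of other cells were read beside Ifngr1, which many immune cells carry. The summed signal of 7 monocyte and macrophage markers ran from 2841 to 4226 in sham and from 3425 to 4371 in CLP arrays. None of its 6 tested members passed, and the CLP mean was higher in 3 of them and lower in 3. Csf1r, the brightest, gave 0.01 ± 0.17 (SE), Cd14 0.72 ± 0.21 (adjusted p = 0.156 by limma) and Fcgr3 -0.53 ± 0.35. The monocyte and macrophage sums overlap between the groups, as do those of neutrophil and regulatory T cell markers. The sums of natural killer markers do not, with 2873 to 3586 in sham and 2540 to 2804 in CLP arrays. Foxp3 and Nrp1 of the regulatory T cell list did not overlap. The part of these cells in the Ifngr1 value was not tested.

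Ligands, other receptors and signalling partners were read from lists of the same pathways, by the brightest probe set of each gene, where 0.199% of 13073 genes were called higher and 0.551% lower and the median difference over them was 0.00. Of the gp130 family, 3 ligands and 4 further receptors were tested and none passed; Clcf1 gave -0.42 ± 0.36 (SE), Osm 0.12 ± 0.13, Il27ra -0.28 ± 0.14 and Lifr 0.16 ± 0.11. Il6 itself was under the filter. None of 4 interleukin 1 family ligands and antagonists and none of 5 other receptors of that family passed, with Il1b at 0.18 ± 0.13, the antagonist Il1rn at 0.05 ± 0.10, Il18rap at 0.14 ± 0.09 and the inhibitory receptor Sigirr at 0.23 ± 0.15. Of 3 tested ligands of the interleukin 10 and interferon lists Il10 was called, with the limits given above, and Il24 gave 0.07 ± 0.08, while Ifng, Ifnb1 and Ifna4 were under the filter. Il22ra2 was the only 1 of 5 other class II receptors bright enough to test.

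Downstream of the receptors, none of 7 Janus kinases, STATs and Irf9 passed, with Stat3 at 0.53 ± 0.18 (SE; adjusted p = 0.249 by limma) and Tyk2 at -0.41 ± 0.23. None of 8 genes of the Myd88 branch passed. Traf6, the ubiquitin ligase below Myd88, gave 0.75 ± 0.17 (adjusted p = 0.0743 by limma, and 0.0443 with the 18S class as a block), with all CLP arrays above all sham arrays. The other 4 Traf6 probe sets gave -0.09 to 0.17, and averaging all of them lowered the difference to 0.19 (adjusted p = 0.332 by limma). Tollip gave 0.13 ± 0.13. Of 8 brakes on these receptors Socs3, which shuts off signalling at gp130, rose 1.46-fold (adjusted p = 0.0489 by limma) and none fell. The call of Socs3 held in 10 of 23 other settings; it was lost with the replicate number as a block (adjusted p = 0.0807 by limma), with its probe sets averaged (0.0641) and without the filter (0.123). Ptpn6 gave -0.35 ± 0.12. None of 6 shedding and recycling genes passed, among them Adam17 (-0.30 ± 0.09, adjusted p = 0.176 by limma) and Adam10 (-0.26 ± 0.12), the proteases known to cut Il6ra from the cell surface. All CLP arrays lay below all sham arrays in this probe set of Adam17. The groups overlapped in the other tested probe sets of Adam17 and in those of Adam10.

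Target genes of the receptors had higher medians than the receptors. The median difference was 0.26 over 8 Stat3 targets, 0.69 over 9 type I interferon targets and 0.37 over 8 interferon gamma targets, and 0.76 over 7 glucocorticoid-induced genes that were read beside them. Among these, 1, 2, 1 and 2 genes rose, in that order: Socs3, then Ifit3 and Rtp4 (both 1.76-fold), then Iigp1 (2.04-fold), then Klf9 (2.04-fold) and Dusp1 (1.95-fold), all by limma, and none fell. Of 23 other settings, the call held in 10 for Rtp4, 13 for Ifit3, 9 for Iigp1 and 18 each for Dusp1 and Klf9 1428289_at, and without the filter none of them passed. Averaging the probe sets of a gene lowered the difference of Rtp4 from 0.81 to 0.41 (adjusted p = 0.0638 by limma) and that of Klf9 from 1.03 to 0.37 (adjusted p = 0.0406). Cebpb (0.93 ± 0.26, SE) and Irgm1 (0.41 ± 0.10) were next in their lists and did not pass in the main fit. With the 18S class as a block Cebpb passed (adjusted p = 0.0280 by limma) and Irgm1 did not (0.0594). The groups overlapped in Cebpb, while all CLP arrays lay above all sham arrays in Irgm1. Earlier results of these arrays were known when these lists were drawn up, so they do not stand as independent evidence of a direction.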

How the data were processed

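RNA of CD4+ splenocytes from 5 CLP and 5 sham mice was measured on Affymetrix arrays; per the labels' protocols, biotin-labelled cRNA was made with 2 rounds of amplification. The table deposited by the authors holds intensities for 45101 probe sets, which were assumed to be linear. For background correction and scaling, the method is not given in the sources used here. Medians of the arrays lay between 127.6 and 142.4. Arrays were brought to 1 median, a floor was set at the 25th percentile (70.4), and the log2 of the result was used. The 64 controls and probe sets with a mean under the 40th percentile were left out, and limma 3.58.1 in R 4.3.3 compared the groups, with Benjamini-Hochberg adjustment over all 27022 tested probe sets. Figures used matplotlib 3.10.9. The fit was tested on simulated data. Genes were named from the platform annotation and matched by Entrez identifier to RefSeq (all 10). Named genes beyond the receptors were, per list, those past the threshold and the 2 lowest p by brightest probe set (a gene's tested probe set with the highest mean); Tbx21, Il1r1 and marker genes were named after their values were seen. The receptors, the lists and the 18S classes (limit 1000) were chosen with earlier results of these data known. Alternatives covered scaling, floor, filter, variance model, array weights, probe set averaging, blocks and leaving out arrays. The number of arrays limits the precision.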

Additional observations from a re-analysis of the deposited data

Results flagged for a closer look

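In 2 of 32 groups of 5 arrays, counting both groups of each tested receptor probe set, 1 array stood far from the rest by Dixon's test; chance flags about 1 in 20 groups. In the CLP group, replicate 4 of Ifnar1 1442222_at lay at 7.28 against 6.86 for the next array. In the sham group, replicate 5 of Ifnar2 1427691_a_at lay at 8.24 against 8.72 for the next array.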

How the results depend on the processing

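Over 23 other settings, 8 of the 16 tested receptor probe sets kept the sign of their difference and 1, Ifngr1, passed in any. The count of receptor probe sets called higher went from 0 to 1 with array weights (Ifngr1 adjusted p = 0.0291 by limma) and with the 18S class as a block, ran from 0 to 1 over the fits that left out 1 array (1 without CLP replicate 1 or 4), and the count called lower was 0 throughout. Among all tested probe sets, 45 higher and 145 lower became 0 and 3 without the filter, 154 and 355 with array weights, 175 and 543 with the 18S class as a block, 0 and 0 in either class alone, and 24 and 61 with the probe sets of a gene averaged (genes); leaving out 1 array gave 0 to 123 higher and 4 to 383 lower. With the replicate number as a block 90 were called higher, and the adjusted p of Ifngr1 was 0.0602 by limma. Same-numbered arrays deviated together with correlations of 0.18, 0.58, 0.38, 0.18 and 0.06, and 1 of the 5 CLP arrays correlated best with its own number. In both groups replicates 2 and 4 are the arrays of the low 18S class, and every best match lay within a class. The count of best matches thus cannot decide whether the numbers pair the mice, and the main fit did not pair them.

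Values near 0 changed sign, none of them past the threshold, and the cause was not tested. In the high 18S class alone Il6ra 1452416_at gave -0.13, Il6st 1452843_at -0.17, Ifnar1 1442222_at -0.22, Ifnar2 1427691_a_at 0.014 and Il22ra2 -0.035. In the low class alone Il6ra 1422270_a_at gave -0.068, Il6st 1437303_at 0.045, Ifnar1 1449026_at 6.55e-04 and Il1rn -0.031. With array weights Il6st 1437303_at gave 0.094 and Il18r1 -0.057, with quantile normalization Ifnar2 1427691_a_at gave 0.023, and with probe sets averaged Il6st gave -0.084. Leaving out 1 array gave ranges of -0.24 to 0.28 for Il6ra 1452416_at, -0.020 to 0.048 for Il6ra 1422270_a_at, -0.059 to 0.15 for Il6st 1452843_at, -0.40 to 0.049 for Il6st 1437303_at, -0.091 to 0.12 for Il18r1, -0.13 to 0.035 for Ifnar2 1427691_a_at and -0.016 to 0.12 for Il1rn. Signal limits Il10ra, whose probe sets lie near the floor.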
